A study of Mus musculus with 12 samples.

Results

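Sprouty, Spred, ETV and Tribbles genes were followed in irradiated and sham-treated brains, in RNA from the cortex and from the hippocampus. All mice were male C57BL/6, and tissue was taken 3 months after cranial irradiation. The members are *Spry1*, *Spry2*, *Spry4*, *Spred1*, *Spred2*, *Spred3*, *Etv4*, *Etv5*, *Trib1* and *Trib2*, found by gene symbol with no threshold on their values, and all 10 were listed among the 23183 gene symbols of each library. The list itself was drawn up with earlier results of these data known, and the study had picked some of these genes, among them *Spry4*, *Trib1* and *Trib2*, from the same samples. The mice were bought at 7 weeks of age and acclimatized for 1 week. Control mice (Con) were sham-irradiated and irradiated mice (IR) received a single dose of 10 Gy to the whole brain at 2 Gy per min, with no other allele or agent in either group. Each region had 3 Con and 3 IR libraries, 12 in all, made from bulk tissue, in which fewer cells of a type and less RNA per cell cannot be told apart. The labels do not say that the libraries of a group came from separate animals, so p values measure the spread between these libraries, which may be technical. The question asked was whether the irradiated libraries differed from the control libraries in each region.

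Sprouty and Spred proteins are inhibitors of the RAS-ERK cascade, through which receptor tyrosine kinases such as those of the FGF and neurotrophin families signal. The Spred proteins bring neurofibromin, a RAS GTPase-activating protein, to the membrane, and the Sprouty proteins act between the receptor and RAF. ERK signaling induces several of these genes and the ETS factors *Etv4* and *Etv5*, so their transcripts are widely used as readouts of the cascade and of its negative feedback. *Trib1* and *Trib2* encode pseudokinases, scaffolds that bring substrates such as C/EBPα to the ubiquitin ligase COP1 and that also bind MEK1.

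Expression was measured by RNA-seq and is given in FPKM, which scales fragments by transcript length and by library size, so levels can be set side by side between genes. The values per library summed to between 359773 and 393447 FPKM, and 17093 to 17548 gene symbols were above 0. The depth in reads is unknown. The summed FPKM of the 6 hippocampus markers was 30.9 to 53.9 in the cortex libraries and 166 to 201 in the hippocampus libraries, and that of the 6 cortex markers was 111 to 121 and 32.2 to 39.8, so every library went with its labelled region. Fold changes were fitted with limma on log2(FPKM + 1) and are given as IR minus Con, and the added 1 makes them smaller than the ratio of means in weakly expressed genes. A gene was tested in a region if at least 3 of the 6 libraries reached 0.5 FPKM, which left 14065 cortical and 14043 hippocampal genes. All 10 members passed in both regions. A gene is said to have risen or fallen only if its p, adjusted by the Benjamini-Hochberg method over every gene tested, was under 0.05.

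The promoters of the 5 members that rose in the irradiated cortex are shown here because these genes rose in the same comparison. Each window runs from 250 bases before to 50 bases after a start site in RefSeq on GRCm38.p6, 5′ to 3′ on the strand of the gene. Capitals mark the GC box GGGCGG, the PEA3 site AGGAAG bound by ETV factors, and the core TGACG of the cAMP response element, each on either strand.
*Etv5*, chr16:22439521-22439820, minus strand: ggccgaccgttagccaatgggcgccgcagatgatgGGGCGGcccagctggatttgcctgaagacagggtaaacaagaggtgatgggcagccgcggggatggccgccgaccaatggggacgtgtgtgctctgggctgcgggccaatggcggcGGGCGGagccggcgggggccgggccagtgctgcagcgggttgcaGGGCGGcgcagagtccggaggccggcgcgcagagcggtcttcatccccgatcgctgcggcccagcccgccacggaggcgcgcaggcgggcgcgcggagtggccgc
*Spred1*, chr2:117120821-117121120, plus strand: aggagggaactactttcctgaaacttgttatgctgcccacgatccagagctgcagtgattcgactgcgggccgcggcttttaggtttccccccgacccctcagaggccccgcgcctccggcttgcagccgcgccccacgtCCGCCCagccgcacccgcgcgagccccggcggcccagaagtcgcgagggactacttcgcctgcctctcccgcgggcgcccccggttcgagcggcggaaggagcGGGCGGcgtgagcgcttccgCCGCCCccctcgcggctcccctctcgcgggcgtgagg
*Spred2*, chr11:19924192-19924491, plus strand: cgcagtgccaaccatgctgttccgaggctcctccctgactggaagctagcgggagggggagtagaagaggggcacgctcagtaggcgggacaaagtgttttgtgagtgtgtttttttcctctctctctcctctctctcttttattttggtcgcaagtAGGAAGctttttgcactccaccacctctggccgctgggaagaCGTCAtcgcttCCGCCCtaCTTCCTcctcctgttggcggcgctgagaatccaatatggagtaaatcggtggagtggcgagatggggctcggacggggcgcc
*Spred3*, chr7:29168598-29168897, minus strand: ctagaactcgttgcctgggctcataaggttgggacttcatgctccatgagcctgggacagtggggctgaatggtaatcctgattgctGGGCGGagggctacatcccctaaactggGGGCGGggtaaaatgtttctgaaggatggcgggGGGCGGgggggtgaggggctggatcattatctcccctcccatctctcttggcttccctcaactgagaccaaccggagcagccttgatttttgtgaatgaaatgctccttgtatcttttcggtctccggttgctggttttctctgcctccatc
*Trib2*, chr12:15816736-15817035, minus strand: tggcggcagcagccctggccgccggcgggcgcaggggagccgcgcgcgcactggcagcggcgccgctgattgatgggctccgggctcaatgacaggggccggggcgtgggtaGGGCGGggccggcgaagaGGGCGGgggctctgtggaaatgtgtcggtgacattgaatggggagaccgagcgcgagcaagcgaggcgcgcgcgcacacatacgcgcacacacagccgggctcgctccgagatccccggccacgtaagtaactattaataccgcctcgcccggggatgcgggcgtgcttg

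The RefSeq windows used here cover 7 members with 8 start sites, including *Spry1*, *Spry2* and a further start site of *Etv5*. The GC box, a binding sequence of SP factors, was in 6 of the 8 windows, against 35.7% of all 32851 windows of this length. All 5 windows printed above hold it, while those of *Spry2* and of the further *Etv5* start site, which are not printed, do not. The PEA3 site was in 2 of 8 windows, those of *Spred2* and of the further *Etv5* start site, where 35.4% of all windows hold it. In *Spred2* it began at bases -93 and -32 relative to the start site, and the TGACG core, held by 20.8% of all windows, began at base -51. None of the 8 windows held the full cAMP response element TGACGTCA (1.79% of all windows), which contains the core, nor the ETS site CCGGAAG (8.86%), the AP-1 site TGANTCA (7.81%), the CArG box of serum response factor (1.63%), the EGR site GCGNGGGCG (5.55%) or the E-box CACGTG (7.15%). GC content was 72.3% in the *Spred1* window and 71.0% in that of *Trib2*, against a median of 52.7% over all windows, and it was 55.0% in *Spred3*. These are letter matches in short windows and were not tested for binding.

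In the irradiated cortex, *Etv5*, *Spred1*, *Spred2*, *Spred3* and *Trib2* rose, by 36.1% to 52.1% of the Con mean. None of the 10 members fell, and the mean of IR was above that of Con for all 10. An adjusted p under 0.05 in the upward direction was reached by 5 of 10 members and by 0.562% of the genes tested. For 8 of 10 members every IR library lay above every Con library, as it did for 11.2% of the genes tested. The median log2 fold change was 0.46 over the members and 0.0016 over all genes tested.

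The 3 Spred genes all rose in the cortex. *Spred1*, which recruits neurofibromin to RAS, was at 34.7, 28.5 and 33.5 FPKM in the 3 Con libraries and at 48.3, 44.3 and 42.4 FPKM in the 3 IR libraries. Its lowest IR library was above its highest Con library, and the log2 fold change was 0.47 (SE 0.08, limma adjusted p = 0.0359), a ratio of means of 1.40. *Spred2*, an inhibitor of the same kind, went from 25.02, 21.3 and 27.2 FPKM in Con to 33.9, 33.6 and 33.0 FPKM in IR. The IR libraries of *Spred2* lay within 1 FPKM of each other while those of Con were spread over several FPKM (SD 0.461 and 2.98, n = 3 each), and the log2 fold change was 0.44 (SE 0.08, limma adjusted p = 0.0444). *Spred3*, the least abundant Spred gene here, was at 12.8, 13.9 and 11.9 FPKM in Con and at 18.8, 17.8 and 15.97 FPKM in IR. Its groups did not overlap either, and the log2 fold change was 0.42 (SE 0.08, limma adjusted p = 0.0461). The ratios of means of *Spred1*, *Spred2* and *Spred3* were 1.40, 1.37 and 1.36, at control means of 32.2, 24.5 and 12.9 FPKM. The adjusted call was made in 7, 5 and 4 of the 13 alternatives, and it was lost for all 3 without the filter on low values and without trend and robust prior.

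Of the ETS factors, *Etv5* rose and *Etv4* did not pass the test. *Etv5* was at 26.5, 30.0 and 26.4 FPKM in the Con cortex and at 41.6, 42.2 and 40.6 FPKM in the IR cortex. This was the smallest adjusted p among the members, with a log2 fold change of 0.57 (SE 0.06, 95% interval 0.43 to 0.71, limma adjusted p = 0.00447), and *Etv5* ranked 10 by p among all genes tested in the cortex. *Etv4*, its close relative, was much lower, at 2.81, 4.02 and 3.08 FPKM in Con and 3.76, 3.37 and 4.01 FPKM in IR. The *Etv4* groups overlapped, and the log2 fold change of 0.14 had a 95% interval from -0.11 to 0.39 (limma adjusted p = 0.631).

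*Trib2* rose in the cortex, and *Trib1* had the largest log2 fold change of the 10 members but missed the adjusted threshold. *Trib2* was at 7.56, 9.39 and 9.96 FPKM in Con and at 13.6, 13.0 and 14.3 FPKM in IR, with no overlap and a log2 fold change of 0.56 (SE 0.09, limma adjusted p = 0.0336). *Trib1* was at 3.47, 6.28 and 6.58 FPKM in Con and at 9.94, 10.05 and 11.6 FPKM in IR. Every IR library was above every Con library, but Con library 1 was far below the other two, and the log2 fold change of 0.87 carried an SE of 0.19 (limma unadjusted p = 0.00142, adjusted p = 0.0930). Without that library the log2 fold change was 0.63 and the limma adjusted p was 0.0170. The ratio of means was 1.93. *Trib1* was the 1 member past a fold of 1.5 with an unadjusted p under 0.05, which 0.391% of the genes tested were in the upward direction. With the ratio of means as the fold, *Spry4* (1.61) and *Trib2* (1.52) were past it too, and *Etv5* (1.4986) lay just below.

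None of the 3 Sprouty genes passed the adjusted threshold in the cortex. *Spry4* was at 2.09, 2.53 and 3.45 FPKM in Con and at 4.37, 4.26 and 4.39 FPKM in IR. The IR libraries were close together and all above Con, and the log2 fold change was 0.55 (SE 0.12, limma unadjusted p = 0.00131, adjusted p = 0.0929). Without Con library 3 it was 0.69, with a limma adjusted p of 0.0379. *Spry2*, the most abundant Sprouty gene, was at 20.9, 24.4 and 24.0 FPKM in Con and at 31.8, 30.1 and 27.1 FPKM in IR. Its groups did not overlap, and the log2 fold change was 0.35 (SE 0.08, limma unadjusted p = 0.00123, adjusted p = 0.0916). *Spry1* overlapped between the groups, at 2.82 to 3.21 FPKM in Con and 2.88 to 3.75 FPKM in IR, and its log2 fold change was 0.10 (95% interval -0.11 to 0.32, limma adjusted p = 0.683). An unadjusted p under 0.05 in the upward direction was thus reached by 8 of 10 members, all but *Spry1* and *Etv4*, and by 8.16% of the genes tested.

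The number of members that rose in the cortex depended on the processing and on which library was left out. It was 1 without the filter on low values, 1 without trend and robust prior, and 3 with quantile normalization. It was 4 in each fit without a Con library, but not with the same members. Without Con library 1 these were *Etv5*, *Spred1*, *Trib2* and, as a gained call, *Trib1* (limma adjusted p = 0.0170). Without Con library 2 they were *Etv5*, *Spred1*, *Spred2* and *Spred3*, and without Con library 3 they were *Etv5*, *Spred2*, *Trib2* and, as a gained call, *Spry4* (limma adjusted p = 0.0379). It was 1 without IR library 1, without IR library 2 and without IR library 3, where the call that remained was *Etv5*. In these 3 fits the log2 fold changes were 0.42 to 0.51 for *Spred1*, 0.43 to 0.45 for *Spred2*, 0.37 to 0.48 for *Spred3* and 0.53 to 0.59 for *Trib2*. *Etv5* kept an adjusted p under 0.05 in all 13 alternatives run, the highest being 0.0387. The members with an unadjusted p under 0.05 numbered 8 in each alternative other than the one without Con library 2, where there were 9.

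**Figure D1:**
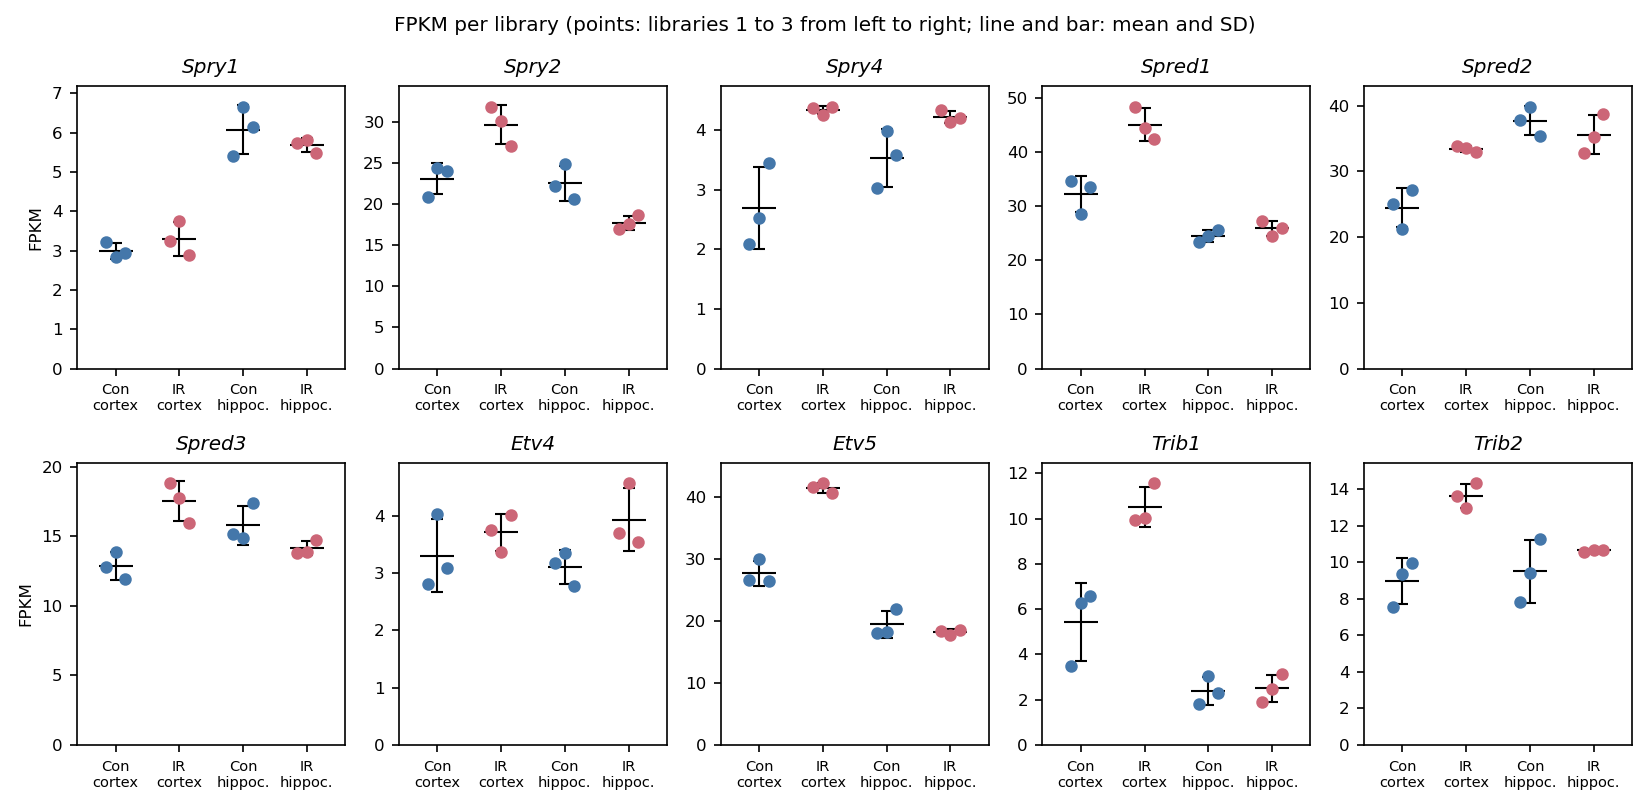
FPKM (vertical axes, each from 0) of each member in the 12 libraries, with Con in blue and IR in red. Each point is a library, and the horizontal line and bar are the mean and SD of 3 libraries. In the cortex the red points lie above the blue points for every member other than *Spry1* and *Etv4*, and in the hippocampus this is so for *Spry4* and *Etv4*, while the red points of *Spry2* and *Spred3* lie below the blue points.

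In the hippocampus none of the 10 members rose or fell. An adjusted p under 0.05 was rare there among all genes, at 0.0142% in each direction. The model fold change was positive for 5 members and negative for 5, and the median log2 fold change was -0.016 over the members and -0.0100 over all genes tested. At an unadjusted p under 0.05, *Etv4* was the 1 member higher in IR, as were 7.06% of the genes tested, and *Spry2* the 1 member lower, as were 6.89%. All IR libraries were above all Con libraries for 2 members, *Spry4* and *Etv4* (10.5% of the genes tested), and below them for 2 members, *Spry2* and *Spred3* (9.36%).

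*Spry2* gave the smallest p of the members in the hippocampus, in the direction opposite to the cortex. It was at 22.2, 24.8 and 20.6 FPKM in Con and at 16.9, 17.6 and 18.6 FPKM in IR. The highest IR library was below the lowest Con library, with a log2 fold change of -0.33 (SE 0.08, limma unadjusted p = 0.00348, adjusted p = 0.247). Without Con library 3 the log2 fold change was -0.39 and the adjusted p was 0.0324, and over the 13 alternatives the adjusted p ran from 0.0324 to 0.573. *Spred3* was at 15.1, 14.9 and 17.4 FPKM in Con and at 13.8, 13.9 and 14.7 FPKM in IR. Its libraries separated by a narrow margin, and the log2 fold change was -0.15 (95% interval -0.32 to 0.03, limma adjusted p = 0.410).

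*Etv4* and *Spry4* were the members with all hippocampal IR libraries above Con. *Etv4* was at 3.17, 3.35 and 2.78 FPKM in Con and at 3.69, 4.56 and 3.53 FPKM in IR, with a log2 fold change of 0.26 (SE 0.11, limma unadjusted p = 0.0381, adjusted p = 0.344). Its unadjusted p was 0.0578 without Con library 1, 0.111 without Con library 3 and 0.149 without IR library 2, where the log2 fold change was 0.17. *Spry4* was at 3.03, 3.98 and 3.59 FPKM in Con and at 4.34, 4.14 and 4.20 FPKM in IR, with a log2 fold change of 0.21 (SE 0.10, limma unadjusted p = 0.0589, adjusted p = 0.372), and its unadjusted p was 0.0223 without Con library 2. For both genes the highest Con library lay close to the lowest IR library.

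The other 6 members overlapped between Con and IR in the hippocampus. *Etv5* was at 18.1, 18.3 and 21.9 FPKM in Con and at 18.4, 17.7 and 18.5 FPKM in IR, a log2 fold change of -0.09 with a 95% interval from -0.28 to 0.10 (limma adjusted p = 0.639). The upper end of that interval lies below 0.43, the lower end of the *Etv5* interval in the cortex. *Spred1* had a log2 fold change of 0.08 (95% interval -0.08 to 0.23) and *Spred2* one of -0.08 (-0.27 to 0.10). *Trib2* ran from 7.83 to 11.3 FPKM in Con and from 10.6 to 10.7 FPKM in IR, with a log2 fold change of 0.16 (-0.10 to 0.42), and its limma unadjusted p was 0.0129 without Con library 3. *Trib1* was low and variable, at 1.82 to 3.05 FPKM in Con and 1.91 to 3.13 FPKM in IR, so that its interval was wide (log2 fold change 0.05, -0.34 to 0.43). *Spry1* was at 5.41 to 6.65 FPKM in Con and 5.48 to 5.81 FPKM in IR, with a log2 fold change of -0.08 (-0.27 to 0.12). Limma adjusted p values of these 6 members lay between 0.521 and 0.917.

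**Figure D2:**
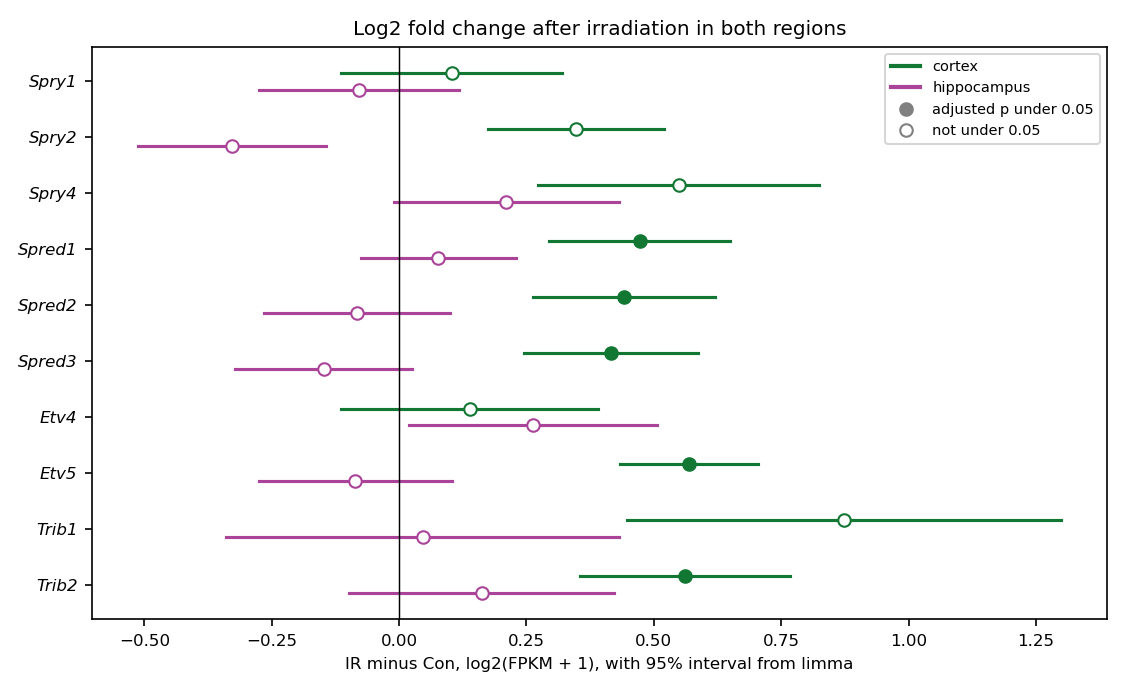
Log2 fold change of each member, IR minus Con on log2(FPKM + 1) (horizontal axis), in the cortex (green) and in the hippocampus (purple), with the 95% interval from limma as the bar. Filled points have an adjusted p under 0.05. The 5 filled points are in the cortex, between 0.42 and 0.57, and the hippocampal points lie on both sides of 0, from -0.33 to 0.26.

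Whether the effect of irradiation differed between the regions was tested as the interaction of irradiation and region over the 12 libraries and 14459 genes. The 12 libraries were treated as independent, although those of the cortex and of the hippocampus may come from the same mice. *Etv5* was the 1 member with an adjusted p under 0.05, which 0.083% of the genes reached in either direction. Its effect was 0.65 lower in the hippocampus on the log2 scale (interaction -0.65, SE 0.10, limma adjusted p = 0.0359). This call was lost in 13 of 18 alternatives, with adjusted p values from 0.00885 to 0.160, among them the fits without cortex Con library 1, cortex Con library 3, any of the cortex IR libraries, hippocampal Con library 2 and any of the hippocampal IR libraries, while the value stayed between -0.71 and -0.57. *Spry2*, with opposite directions in the regions, came next (-0.67, SE 0.12, limma unadjusted p = 6.71e-05, adjusted p = 0.0560), and it passed the adjusted threshold in 3 of 18 alternatives, those with at least 1 FPKM in every library, with quantile normalization and without hippocampal Con library 3. *Spred3* (-0.56, limma adjusted p = 0.108), *Spred2* (-0.52, 0.182) and *Spred1* (-0.39, 0.257) followed. The largest value of the members was that of *Trib1*, at -0.83, with a larger SE of 0.27 (limma unadjusted p = 0.0104, adjusted p = 0.357). Over the alternatives 0 to 4 members passed the adjusted threshold, the 4 being *Etv5*, *Spry2*, *Spred2* and *Spred3* without hippocampal Con library 3. Region and the number in the column names of the files go together, so a difference between the regions cannot be told apart from whatever that number marks, which the sources used here do not state. The interaction was negative for 9 of 10 members, *Etv4* being the exception at 0.12. An unadjusted p under 0.05 with a lower effect in the hippocampus was reached by 7 of 10 members, all but *Spry1*, *Spry4* and *Etv4*, and by 5.61% of the genes tested. The median interaction was -0.46 over the members and -0.014 over all genes tested.

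The control levels of the members spanned an order of magnitude. In the Con cortex, *Spred1* (32.2 ± 3.27 FPKM, SD, n = 3), *Etv5* (27.7 ± 2.03), *Spred2* (24.5 ± 2.98) and *Spry2* (23.1 ± 1.91) formed the upper end, and each overlapped the next in its libraries. *Spred3* (12.9 ± 0.979) and *Trib2* (8.97 ± 1.25) came next, each apart from its neighbours. *Trib1* (5.44 ± 1.71), *Etv4* (3.31 ± 0.636), *Spry1* (2.99 ± 0.201) and *Spry4* (2.69 ± 0.690) formed the lower end, where each overlapped the next in its libraries, although the lowest Con library of *Trib1* lay above the highest of *Spry1* and of *Spry4*.

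In the Con hippocampus *Spred2* was highest, at 37.7 ± 2.21 FPKM, with no overlap with *Spred1* (24.5 ± 1.11). *Spred1*, *Spry2* (22.5 ± 2.13) and *Etv5* (19.4 ± 2.15) overlapped in sequence, and *Spred3* (15.8 ± 1.39), *Trib2* (9.50 ± 1.72) and *Spry1* (6.07 ± 0.622) were each apart from their neighbours. *Spry4* (3.53 ± 0.481), *Etv4* (3.10 ± 0.293) and *Trib1* (2.39 ± 0.621) overlapped at the lower end. The Con mean of *Spry1* in the hippocampus was 2.03 times that in the cortex, and that of *Trib1* was 0.439 times. Because region and the number in the column names go together, these regional levels were not tested.

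The other genes that are used as readouts of MAPK activity were higher in the irradiated cortex for all 5 tested. *Dusp6*, a phosphatase that inactivates ERK, was at 15.6, 20.7 and 22.0 FPKM in Con and at 33.7, 33.6 and 36.3 FPKM in IR, and it rose with a log2 fold change of 0.81 (SE 0.11, limma adjusted p = 0.0152). *Ccnd1*, which encodes cyclin D1, rose from 11.2, 11.3 and 9.23 FPKM to 15.8, 15.1 and 13.7 FPKM (log2 fold change 0.46, limma adjusted p = 0.0466). Both genes separated Con from IR, as did 11.2% of the genes tested in the upward direction. Of the 5 genes 4 had an unadjusted p under 0.05 (8.16% of the genes tested) and 2 an adjusted one (0.562%). In the hippocampus 2 of the 5 were higher and 3 lower, and none had an unadjusted p under 0.05. Among 7 further feedback genes induced by ERK, 4 were higher and 3 lower in the cortex, 2 with an unadjusted p under 0.05 upward (8.16% of the genes tested) and none with an adjusted one. The largest differences were those of *Dusp1* (log2 fold change 0.66, limma adjusted p = 0.433) and *Dusp5* (0.57, 0.210), which encode MAPK phosphatases. In the hippocampus 4 of 6 were higher and 2 lower, 1 with an unadjusted p under 0.05 upward (7.06%). The study had picked *Dusp6*, *Dusp1* and *Dusp5* from these same samples.

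The ligands, receptors and kinases of the cascade itself were split between higher and lower. Over 90 genes in 7 lists (growth factor ligands, receptor tyrosine kinases, adaptors with exchange factors and RAS, RAS GTPase-activating proteins, RAF to RSK kinases with scaffolds, partners of Sprouty and Spred, partners of Tribbles), 88 were tested in the cortex, of which 46 were higher and 42 lower, with a median log2 fold change of 0.014. An unadjusted p under 0.05 was reached by 11 upward (8.16% of all genes tested) and 2 downward (5.94%). The lists differed: of 17 ligands tested 11 were higher and 6 lower, with 5 upward and 0 downward at such a p. Of 18 adaptors, exchange factors and RAS genes 8 were higher and 10 lower, with 0 upward and 2 downward. The 1 gene with an adjusted p under 0.05 was *Bdnf*, a neurotrophin ligand of TrkB, which rose from 5.12 ± 0.219 to 8.24 ± 0.571 FPKM (SD, n = 3, log2 fold change 0.59, limma adjusted p = 0.0106), and its effect differed between the regions (limma adjusted p of the interaction 0.0292). In the hippocampus 41 of 87 were higher and 46 lower, with 5 in each direction at an unadjusted p under 0.05 (7.06% of all genes tested upward and 6.89% downward), none at an adjusted one, and a median of -0.0086. Of the closest relatives of the members, *Spry3* was listed at 0 in all libraries, *Trib3* was below the filter, and *Etv1* had log2 fold changes of 0.04 in the cortex and -0.12 in the hippocampus (limma adjusted p = 0.878 and 0.748).

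**Figure D3:**
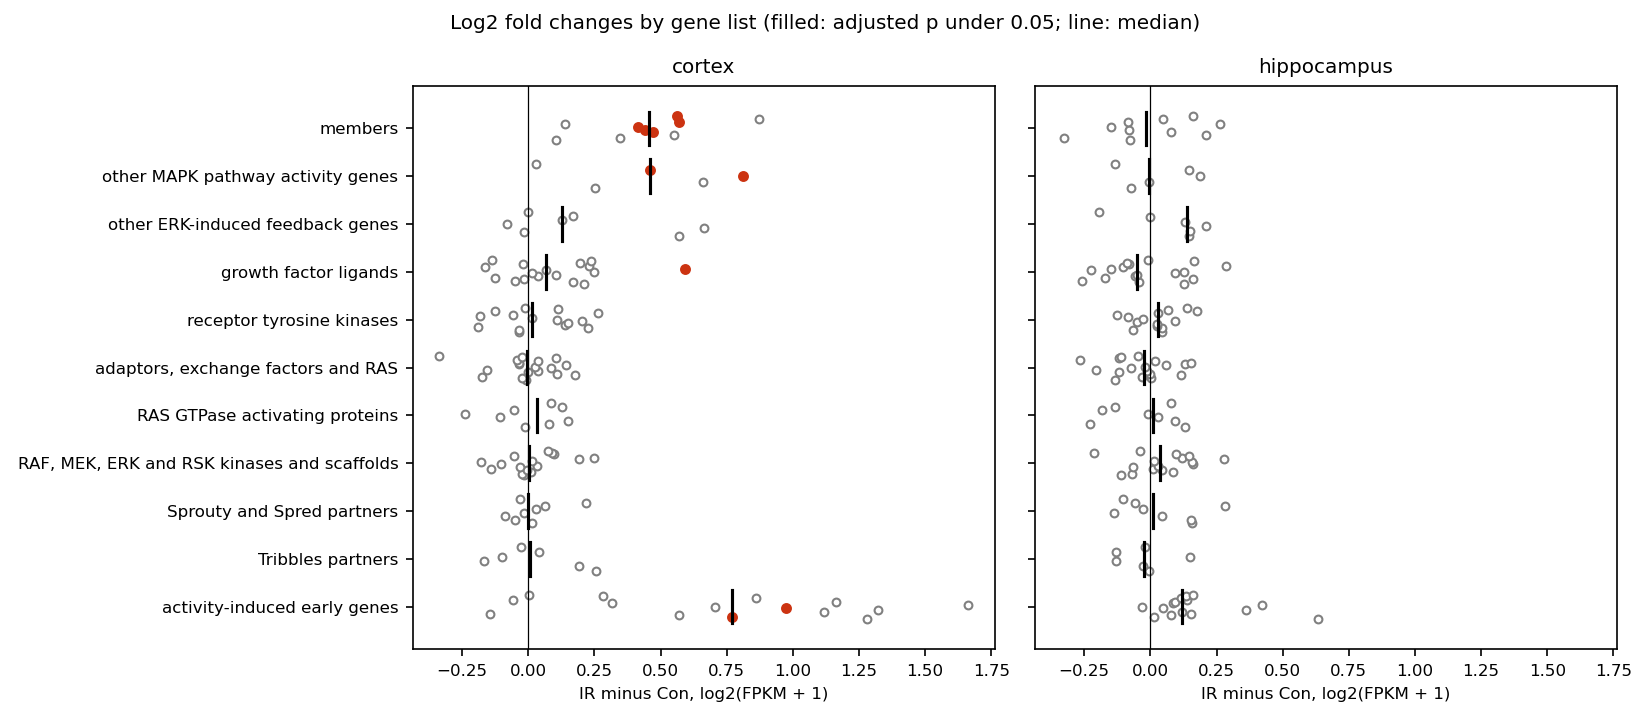
Log2 fold change, IR minus Con on log2(FPKM + 1) (horizontal axes), of each tested gene (points) in the members and in 10 other gene lists, for the cortex and the hippocampus. Filled points have an adjusted p under 0.05 and vertical lines are medians. In the cortex the medians of the members (0.46), of the other MAPK activity genes (0.46) and of the activity-induced early genes (0.77) lie to the right of the lists of ligands, receptors and kinases, while in the hippocampus the medians of all lists shown lie between -0.05 and 0.14.

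Early genes induced by neuronal activity were mostly higher in the irradiated cortex. Of 15 such genes 13 were higher and 2 lower in IR. An unadjusted p under 0.05 was reached upward by 8 of the 15 (8.16% of the genes tested) and an adjusted one by 2 of the 15 (0.562%), and some of the 15 had been picked by the study from these samples. *Egr3*, a zinc finger factor, rose with a log2 fold change of 0.97 (SE 0.06, limma adjusted p = 0.000185) and *Fosb*, an AP-1 subunit, with 0.77 (SE 0.12, limma adjusted p = 0.0303). The summed FPKM of the 15 genes was 221 to 429 in Con and 642 to 787 in IR. Con library 1 was the lowest control library for 15 of the 15 early genes and for 5 of the 10 members, *Spry2*, *Spry4*, *Etv4*, *Trib1* and *Trib2*. Without it the cortical log2 fold change of *Trib1* was 0.63 in place of 0.87, that of *Spry4* 0.43 in place of 0.55 and that of *Trib2* 0.46 in place of 0.56, the members with an unadjusted p under 0.05 numbered 8, and those with an adjusted one went from 5 to 4. In the hippocampus 14 of the 15 early genes were higher, 1 with an unadjusted p under 0.05, and the sums of 225 to 281 FPKM in Con and 249 to 350 FPKM in IR overlapped. Early genes also varied by library there, since Con library 1 was the lowest control library for 10 of the 15 early genes and for 6 of the 10 members, and IR library 1 was the lowest irradiated library for 13 of the 15 early genes. IR library 3 was the highest irradiated library for 13 of the 15 in the hippocampus and for 14 of the 15 in the cortex. Clock output genes also differed in the cortex, where of 11 tested *Per2* rose (log2 fold change 0.71) and *Dbp* (-0.97), *Ciart* (-0.85) and *Nr1d1* (-0.59) fell, with limma adjusted p values from 0.000185 to 0.0124, and 3 of the 11 had an unadjusted p under 0.05 upward (8.16% of the genes tested) and 5 downward (5.94%). In the hippocampus 1 of the 11 had one upward (7.06%) and 4 downward (6.89%), and none an adjusted one. The part of these differences in the result for the members was not tested. Of the clock output genes, *Per2*, *Ciart* and *Nr1d1* had been picked by the study from these same samples.

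**Figure D4:**
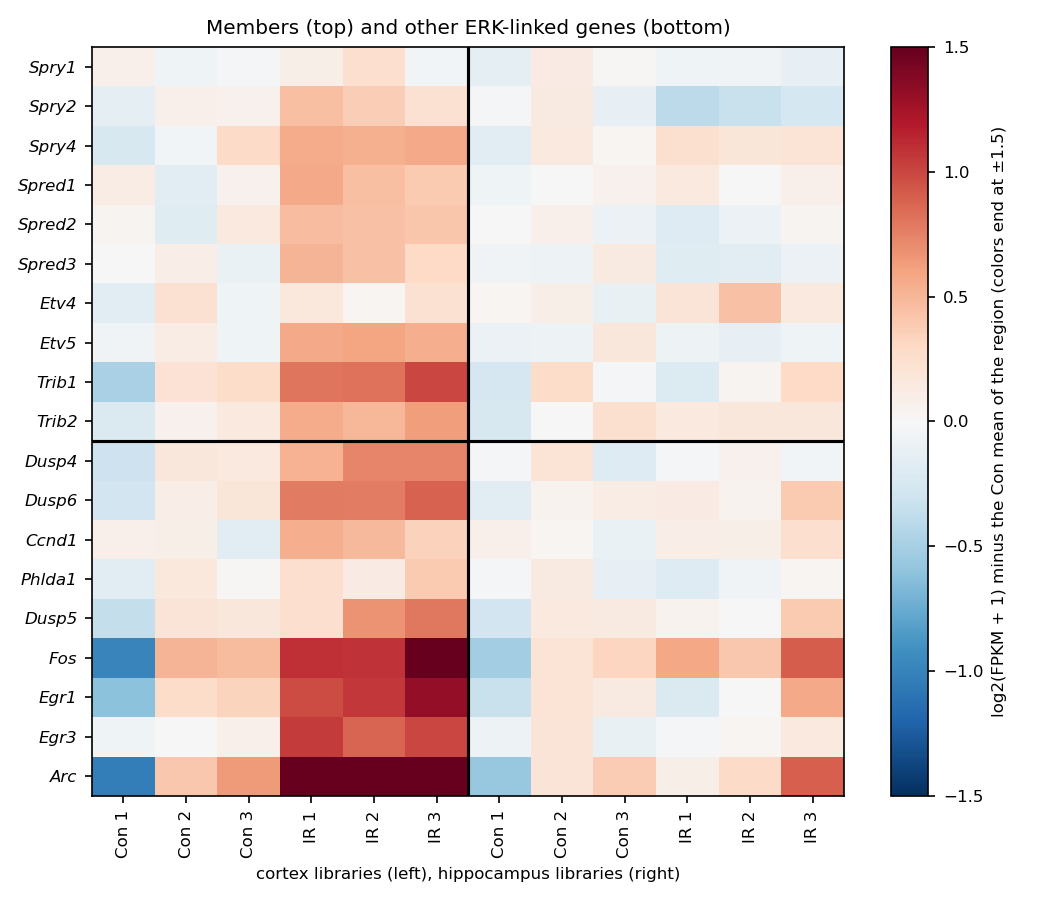
Log2(FPKM + 1) of each library minus the Con mean of its region (color, red higher and blue lower, colors end at ±1.5) for the 10 members above the line and, below it, 9 other ERK-linked genes that were chosen for display after their values were seen. Columns are libraries, cortex on the left and hippocampus on the right. In the cortex, IR columns are red for most rows and Con column 1 is the bluest for *Trib1*, *Fos*, *Egr1* and *Arc*.

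No marker gene of a cell type had an adjusted p under 0.05 in the cortex. Mature oligodendrocyte markers were higher in IR for 8 of 8 genes in the cortex, 4 with an unadjusted p under 0.05 (8.16% of the genes tested), with sums of 1101 to 1363 FPKM in Con and 1366 to 1654 FPKM in IR, and lower for 6 of 8 in the hippocampus, 2 with an unadjusted p under 0.05 (6.89%), with overlapping sums of 1131 to 1381 and 1047 to 1329 FPKM. Microglia markers were lower for 8 of 8 in both regions, and in the cortex 3 (5.94% of the genes tested) and in the hippocampus 6 (6.89%) reached an unadjusted p under 0.05, with sums of 113 to 119 and 79.2 to 111 FPKM in the cortex and of 113 to 125 and 82.5 to 89.7 FPKM in the hippocampus, where *Csf1r*, the receptor on which microglia depend, fell (log2 fold change -0.84, limma adjusted p = 0.0126). Endothelial markers were higher for 6 of 8 in the cortex, 3 with an unadjusted p under 0.05 (8.16% of the genes tested), with sums of 80.0 to 95.6 and 97.7 to 113 FPKM. They were higher for 5 of 8 in the hippocampus, 2 with such a p (7.06%), with sums of 69.4 to 78.5 and 85.6 to 88.3 FPKM. Astrocyte and oligodendrocyte precursor markers were each higher for 4 of 8 in the cortex, and higher for 1 of 8 and 2 of 8 in the hippocampus. At an unadjusted p under 0.05, 1 astrocyte and 2 precursor markers were higher in the cortex (8.16% of the genes tested). In the hippocampus 1 precursor marker was lower at such a p (6.89%). The precursor sums were 78.8 to 82.9 FPKM in Con and 83.0 to 91.4 FPKM in IR in the cortex, and 93.8 to 96.5 and 85.4 to 92.4 FPKM in the hippocampus, so that they separated in opposite directions. The astrocyte sums overlapped in both regions. In the cortex they were 821 to 905 and 854 to 915 FPKM, and they were 931 to 1061 and 911 to 972 FPKM in the hippocampus, where 3 of the 8 genes were lower at an unadjusted p under 0.05 (6.89% of the genes tested). Excitatory and inhibitory neuron markers were higher for 4 of 6 and 5 of 6 in the cortex and for 3 of 6 and 1 of 6 in the hippocampus. Choroid plexus markers varied widely within groups, with sums of 3.50 to 30.2 and 15.98 to 439 FPKM in the cortex and of 23.0 to 1061 and 24.0 to 1649 FPKM in the hippocampus. Meningeal fibroblast markers were lower for 6 of 6 in the cortex and higher for 6 of 6 in the hippocampus, and blood markers were higher for 2 of 3 tested in the cortex and 2 of 4 in the hippocampus. The hippocampus markers were higher in IR for 2 of 4 tested in the cortex and 5 of 6 in the hippocampus, and the cortex markers for 3 of 6 and 2 of 5. Of the hippocampus markers, 2 were higher in the hippocampus at an unadjusted p under 0.05 (7.06% of the genes tested). No marker gene was at 0 in every library of a group. The part of cell-type markers in the result for the members was not tested.

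The members were also compared by their pattern over the 12 libraries after the mean of each region was removed, as Pearson correlations given as a description. All points share the contrast of Con and IR. Among the members, *Spred3* and *Etv5* were the most alike (r = 0.947), followed by *Spry4* and *Trib2* (0.919), while *Spry1* and *Etv4* were the least alike (-0.269). Of 13649 genes, the most like *Etv5* were *Synj2* (0.966), *Spred3* and *Ppard* (0.943), and the most like *Spred3* were *Galnt9* (0.951), *Etv5* and *Synj2* (0.926). *Trib1* was closest to the early genes *Egr1* (0.986), *Arc* (0.959) and *Egr4* (0.958). *Trib2* and *Spry4* were both closest to *Gpr3*, a receptor that raises cAMP (0.987 and 0.953), followed by *Zfp948* (0.946) and *Dusp6* (0.945) for *Trib2* and by *Tiparp* (0.947) and *Irs2* (0.944) for *Spry4*. *Spred1* was closest to *Pdp1* (0.977), *Mir124a-1hg* (0.974) and *Homer1* (0.964), *Spred2* to *Dio2* (0.959), *Fam212b* (0.938) and *Tacc1* (0.938), *Spry2* to *Csnk1d* (0.909), *Rcan1* (0.900) and *Otud1* (0.893), and *Etv4* to *Osgep* (0.899), *Tnfaip8l1* (0.893) and *Ssna1* (0.872).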

How the data were processed

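RNA-seq was analysed in 12 libraries. The authors made the deposited FPKM values with FASTX_Trimmer, BBMap, TopHat and Cufflinks and a geometric normalization in edgeR. The submitters' processing notes name mm10. Versions and the annotation are not given in the sources used here. The labels state Trizol extraction and a directional kit, while the paper's methods state a lipid tissue kit and poly(A) selection. No pair of libraries held identical values. Read depth is unknown, so no counting error is given.

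Each library was grouped by its label. Values were taken as log2(FPKM + 1), genes had to reach 0.5 FPKM in 3 or more of the 6 libraries of a region, and limma 3.58.1 in R 4.3.3 was fitted per region with trend and robust prior. The p values are 2-sided and adjusted by Benjamini-Hochberg over all genes tested. The interaction used 12 libraries. An exact permutation test of 3 against 3 libraries cannot give a p below 0.1, so none was used. The fit was tested on simulated data. The members, the gene lists and the lists of markers were chosen with earlier results of these data known, and the motif set was extended after a first scan. Named are all members, the list genes with an adjusted p under 0.05 or else up to 2 with the largest cortical fold change, and the 3 genes most like each member with an unadjusted p under 0.05 in either region. Promoters came from RefSeq (GRCm38.p6), and no genome coordinates of the files were used. Alternatives were other filters, a pseudocount of 0.1, quantile normalization, no trend or robust prior, the ratio of means as the fold, the library number as a block, a single fit over all libraries, and leaving out each library. Python 3.11.15 with matplotlib 3.10.9 drew the figures.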

Additional observations from a re-analysis of the deposited data

Results flagged for a closer look

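*Etv5*, *Spry2* and *Spred3* were picked out for a difference in the effect of irradiation between the regions, and 1 of these differences passed the adjusted threshold. The effect on *Etv5*, hippocampus minus cortex, was -0.65 on the log2 scale (interaction, limma adjusted p = 0.0359), and this call was lost in 13 of 18 alternatives. *Spry2* and *Spred3* were picked out because every IR library was above every Con library in the cortex and below in the hippocampus. Taken singly, the first held for 11.2% of the genes tested in the cortex and the second for 9.36% in the hippocampus. The share of genes with both was not computed. The interactions of *Spry2* and *Spred3* missed the adjusted threshold, at -0.67 for *Spry2* (limma unadjusted p = 6.71e-05, adjusted p = 0.0560) and at -0.56 for *Spred3* (limma unadjusted p = 0.000209, adjusted p = 0.108). *Spry2* passed it in 3 of 18 alternatives and *Spred3* in 1, without hippocampal Con library 3.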

How the results depend on the processing

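The number of members that rose in the cortex was 5. It was 1 without the filter on low values, 1 without trend and robust prior, 3 with quantile normalization and 4 with the library number as a replicate block, and it ran from 1 to 4 when a library was left out. In the cortex 1 member was past a fold of 1.5 at an unadjusted p under 0.05, but 3 with a pseudocount of 0.1, 3 with the ratio of means as the fold, and 1 to 3 when a library was left out. In the hippocampus the number with an adjusted p under 0.05 was 0, and 0 to 1 when a library was left out, the 1 being *Spry2* without Con library 3. The members whose effect differed between the regions at an unadjusted p under 0.05 numbered 7, and 6 to 8 over all alternatives. In the fit that gave 7, such a p was reached in either direction by 10.4% of the genes tested. Of single values, the hippocampal log2 fold change of *Trib1* reversed, to -0.08 without Con library 1 (-0.0786) and to -0.08 without IR library 3 (-0.0803), with a range of -0.08 to 0.18 when a library was left out, and no value in it passed the test. Where a value lost or gained a call under a setting other than a left-out library, the cause was not tested.

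The sources used here do not say whether same-numbered cortical and hippocampal libraries came from the same mouse. Their deviations from the group mean correlated at 0.021, -0.040 and 0.181 in Con and at -0.054, -0.011 and 0.105 in IR. Weak correlations over many genes cannot decide this. Same-numbered Con and IR libraries are from different mice, and their deviations correlated at 0.108, -0.109 and -0.040 in the cortex and at -0.393, -0.154 and -0.085 in the hippocampus. With the replicate block the members that rose in the cortex were *Etv5*, *Spred1*, *Trib1* and *Trib2*, none did in the hippocampus, no interaction passed the adjusted threshold, and 8 interactions had an unadjusted p under 0.05. With 3 libraries a group and no read counts, differences of weakly expressed members such as *Spry1*, *Etv4* and hippocampal *Trib1* were not detectable below the intervals given.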

Other observations

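*Epha2*, an ephrin receptor listed with the MAPK activity genes, was looked at after its values were seen. It was below the filter in both regions, and its IR libraries lay above its Con libraries in both, with no test. The cortical values were 0.133 to 0.475 FPKM for Con and 0.481 to 0.514 FPKM for IR, and the hippocampal values were 0.268 to 0.319 FPKM and 0.420 to 0.717 FPKM.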
